A study of Saccharomyces cerevisiae with 6 samples.

Results

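The nuclear genes of the mitochondrial respiratory chain and ATP synthase were examined in budding yeast, together with the genes of the HAP activators that control many of them. Probe sets of the array table were matched to a fixed list of 48 gene symbols, and all 48 had exactly 1 probe set, out of 5449 yeast genes tested. The list holds 3 NADH dehydrogenases, 4 subunits of complex II, 9 of complex III, 2 forms of cytochrome c, 9 subunits of complex IV, 16 genes of complex V and 5 HAP genes. The subunits encoded in the mitochondrial genome were not analysed here.

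RNA came from a mutant strain, WY317, in which a lysine of histone H2B is replaced by alanine (K111A), and from PY014, labelled as wild type for histone H2B, with 3 arrays each. Per the labels, both strains were grown in YPD, a rich medium that contains glucose, and harvested in mid-log phase at an optical density between 0.35 and 0.7. Each genotype is represented by 1 strain, no other allele is named, and the same wild-type arrays are labelled as controls of another H2B mutant not analysed here. Nothing says whether the replicates were separate cultures, and the p-values below reflect only how these samples vary, which may be technical variation.

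Electrons from NADH and succinate enter the chain at the NADH dehydrogenases and complex II and pass through coenzyme Q, complex III and cytochrome c to complex IV, which reduces oxygen. Budding yeast has no proton-pumping complex I, and its NADH dehydrogenases are small enzymes encoded in the nucleus. Complex V uses the proton gradient to make ATP. On glucose this yeast mainly ferments, and many genes of respiration are repressed. Hap2, Hap3 and Hap5 bind CCAAT sequences in promoters, and Hap4, whose gene is itself repressed by glucose, supplies the activating part.

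Intensity averaged 146.4 to 148.2 over all probe sets of an array, and within a strain the arrays correlated over genes at 0.9965 to 0.9984. All 48 members lay above background on all 6 arrays, background being the 99th percentile (3.7) of probe sets for another yeast species on the same array. HTB1, which encodes H2B, averaged 1204 in H2B K111A and 1280 in wild type (adjusted p = 0.192 by limma). A substitution need not alter an mRNA level, so this does not check the labels. Changes below are H2B K111A minus wild type in log2(intensity + 32), where the added 32 shrinks the changes of dim genes. Fold values are ratios of mean linear intensities. The arrays had been brought to a common scale, so a value is relative to the rest of the mRNA, and fewer cells with a transcript cannot be told apart from less of it per cell. A gene passed the test at a limma p, adjusted over all 5449 genes, under 0.05.

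The differences were small, and more members had a change above 0 than below it. Above 0 were 34 of the 48 members and below 0 were 14, against 2715 and 2734 of all 5449 genes tested. All genes of the NADH dehydrogenases, complex II, complex III and the complex V inhibitors lay above 0. Each other group had genes on both sides of 0. Members are not replicates, so these counts only describe the list. Complexes III and IV had 1 of 9 subunits past the test each, 11.1% against 14.5% of all genes tested, and cytochrome c had none. Of the 48 members 8 rose, or 16.7%, against 6.92% of all genes tested, and 1 fell, or 2.08%, against 7.62%. The genes that rose were NDI1, SDH1, SDH2, CYT1, COX13, ATP17, TIM11 and HAP4, by 1.12-fold to 1.27-fold. ATP19 was the gene that fell. For 19 members, or 39.6%, all 3 H2B K111A arrays lay above all 3 wild-type arrays, against 18.2% of all genes. For 3 members, or 6.25%, they lay below, against 18.6% of all genes. The median log2 change was 0.051 over the members and -0.0005 over all genes. Without H2B K111A array 1, on which the members had their highest median, the median change was 0.018. The count of members past the test was 3 without H2B K111A array 1 or array 3, and 5 without H2B K111A array 2, wild-type array 1 or wild-type array 3.

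**Figure D1:**
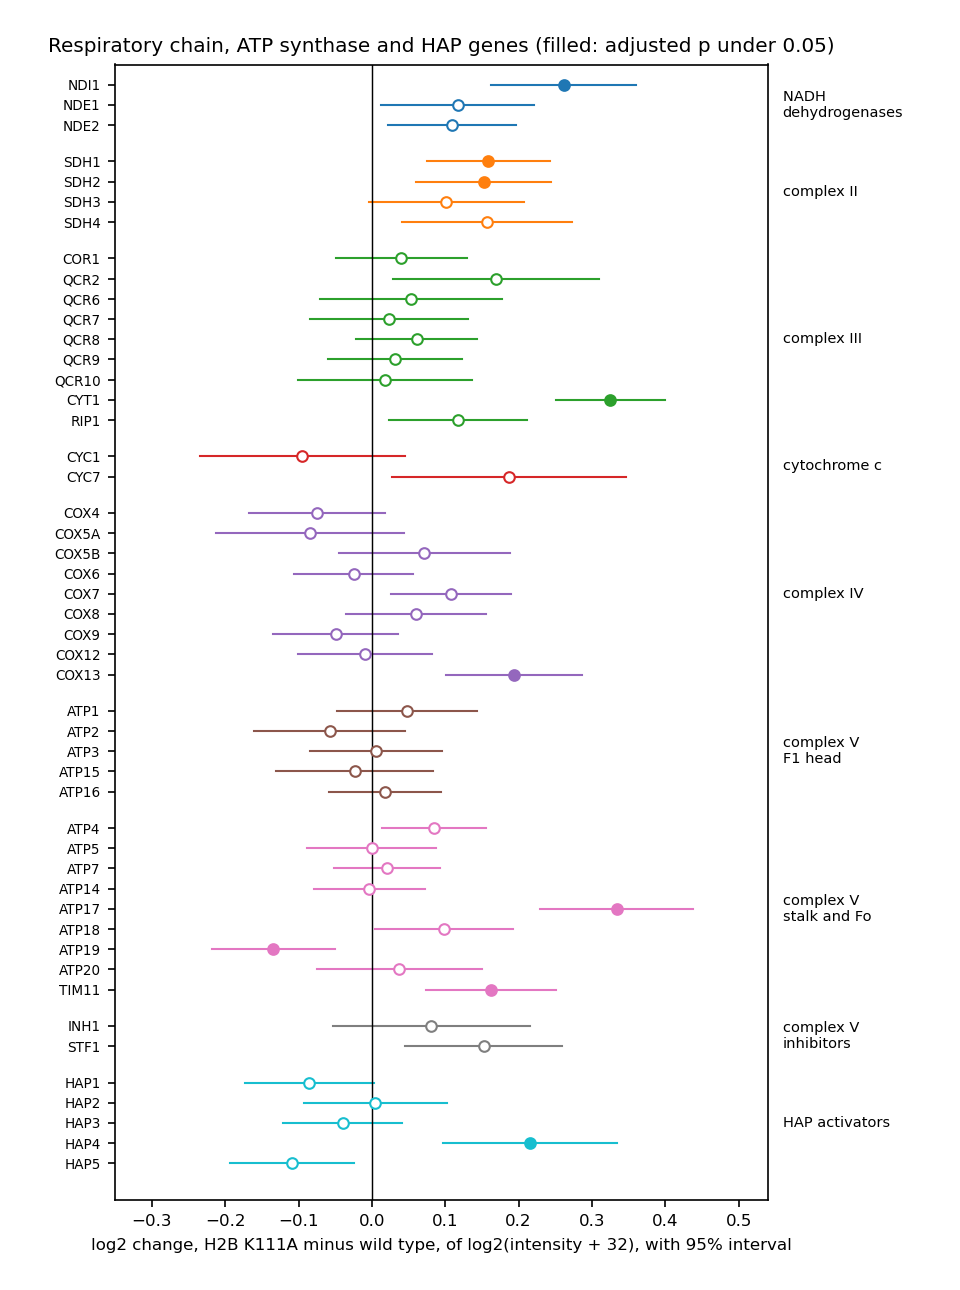
Log2 change, H2B K111A minus wild type, of log2(intensity + 32) for each of the 48 members, with its 95% interval from limma, grouped by complex. Filled points passed the test: 8 lie right of 0 and 1, ATP19, lies left of it.

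Of the 39 members that did not pass, 36 had a 95% interval within a 1.2-fold change of intensity + 32 in either direction. The other 3 were SDH4, QCR2 and CYC7, whose intervals reached up to 0.27, 0.31 and 0.35 on the log2 scale. For dim genes this does not bound the fold of linear intensity. NDE2, one of the 36, had a ratio of mean linear intensities of 1.35. At an unadjusted p under 0.05 were 20 of the 48 members, against 31.7% of all genes tested, and of the 11 that the adjustment removed 10 were higher and 1, HAP5, was lower. The closest to the threshold were STF1, SDH4 and COX7, with adjusted p of 0.0618, 0.0726 and 0.0774.

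NDI1, the internal NADH dehydrogenase that takes electrons from NADH in the mitochondrial matrix, rose 1.23-fold. It was 1 of 3 NADH dehydrogenases, 33.3% against 6.92% of all genes tested. NDI1 (YML120C) read 217.6, 206.8 and 215.8 on the H2B K111A arrays and 175.7, 181.4 and 161.5 on the wild-type arrays. The strains did not overlap, and the log2 change was 0.26 (SE 0.044, adjusted p = 0.00843). Its call held without any 1 of the 6 arrays, with adjusted p of 0.0147 to 0.0418. NDE1 (YMR145C), the main external enzyme, which oxidizes cytosolic NADH, read 1066, 1007 and 1008 in H2B K111A and 939.8, 999.9 and 895.9 in wild type. These values also did not overlap, but the gap between them was 7.4 units, and the change missed the threshold (0.12, SE 0.046, adjusted p = 0.121). NDE2, the second external enzyme, was dim, at 12.8, 10.7 and 14.2 in H2B K111A and 9.8, 9.4 and 8.7 in wild type (adjusted p = 0.0906).

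Complex II, succinate dehydrogenase, also belongs to the tricarboxylic acid cycle, and its 4 subunits had a median change of 0.15 on the log2 scale. SDH1 and SDH2, the flavoprotein and the iron-sulfur subunit that together form the catalytic part, rose. SDH1 (YKL148C) read 526.5, 495.6 and 490.7 in H2B K111A and 451.6, 449.4 and 443.4 in wild type (log2 change 0.16, SE 0.037, adjusted p = 0.0258). SDH2 (YLL041C) read 382.6, 367.4 and 372 in H2B K111A and 349.6, 333.6 and 317.4 in wild type (0.15, SE 0.041, adjusted p = 0.0398). For both genes every mutant array lay above every wild-type array.

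SDH3 and SDH4, the membrane anchors, had changes in the same direction that missed the threshold. SDH4 (YDR178W) read 508.6, 448.5 and 441 in H2B K111A and 415.4, 416 and 410 in wild type (0.16, SE 0.051, adjusted p = 0.0726). SDH3 (YKL141W) read 486, 447.6 and 445 in H2B K111A and 404.7, 442.7 and 431.2 in wild type (0.10, SE 0.047, adjusted p = 0.175). All 4 genes had their highest value on H2B K111A array 1, and for all 4 the strains did not overlap. The median of the group was 0.11 without that array. The SDH1 call was lost without any 1 of the 6 arrays (adjusted p = 0.0538 to 0.0807), and the SDH2 call without each array except wild-type array 1 (up to 0.118 without H2B K111A array 1).

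In complex III, which passes electrons from coenzyme Q to cytochrome c, 1 of 9 subunits rose, 11.1% against 6.92% of all genes tested. None fell, against 7.62% of all genes. CYT1, cytochrome c1, the heme subunit that hands the electron to cytochrome c, rose 1.27-fold. CYT1 (YOR065W) read 609.9, 591.3 and 608.1 in H2B K111A and 477.9, 466.9 and 479.9 in wild type. The gap between the strains was 111.4 units while the arrays spanned 18.6 units in H2B K111A and 13.0 in wild type, and CYT1 had the lowest adjusted p of the 48 members (0.33, SE 0.033, adjusted p = 0.00162). The call held without any 1 array (adjusted p = 0.00342 to 0.0121).

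The other catalytic subunit in the list, RIP1, the Rieske iron-sulfur protein, averaged 726 ± 7.57 in H2B K111A and 667 ± 34.0 in wild type (SD, n = 3 each, adjusted p = 0.0905). QCR2, a core subunit on the matrix side, averaged 640 ± 31.6 in H2B K111A and 566 ± 49.1 in wild type (SD, n = 3 each, adjusted p = 0.0981). For both the strains did not overlap, with a gap of 29.2 units for RIP1 but only 0.3 for QCR2. The QCR2 arrays spanned 60.3 units in H2B K111A and 93.1 in wild type. The remaining 6 subunits, COR1, QCR6, QCR7, QCR8, QCR9 and QCR10, had overlapping arrays and changes of 0.018 to 0.061. QCR10, which had the smallest of these, read 614.1, 563.2 and 572.8 in H2B K111A and 533.5, 592.6 and 602.9 in wild type. The median of the 9 subunits was 0.053, and 0.011 without H2B K111A array 1.

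**Figure D2:**
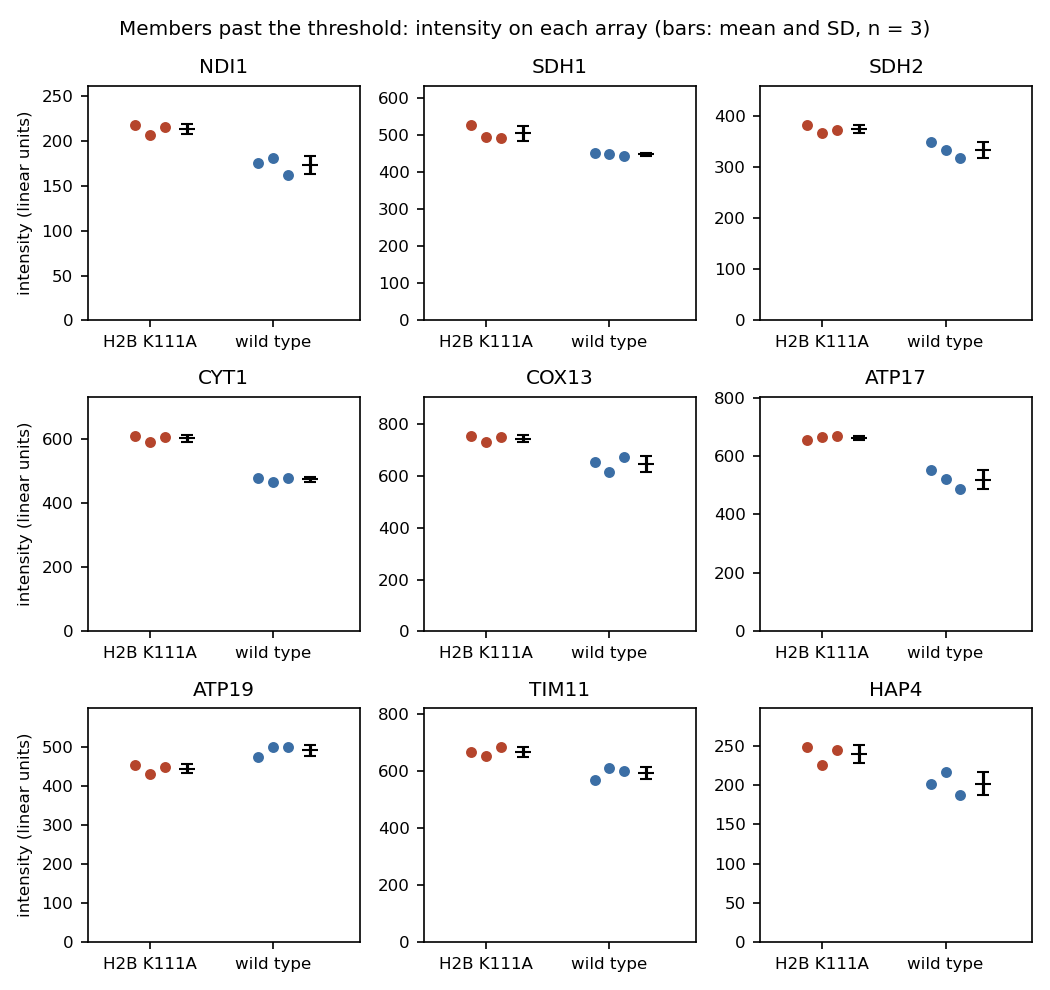
Linear intensity on each array (points) of the 9 members past the test, H2B K111A left and wild type right, with the mean and SD of the 3 arrays (black). For CYT1 the mutant arrays lie between 591.3 and 609.9 and the wild-type arrays between 466.9 and 479.9, and in each panel the strains do not overlap.

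Complex IV, cytochrome c oxidase, showed no common direction, with 4 of 9 nuclear subunits above 0, 5 below 0 and a median of -0.0091. COX13, subunit VIa, rose 1.15-fold and was the only one of the 9 past the test. This made 11.1% higher, against 6.92% of all genes tested, and none lower, against 7.62%. COX13 (YGL191W) read 753.9, 729.4 and 749.1 in H2B K111A and 652.4, 613.8 and 674.4 in wild type (0.19, SE 0.041, adjusted p = 0.0188). Its strains were separate, but the call was lost without H2B K111A array 1 or array 3 (adjusted p up to 0.0741 without array 3).

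COX7, a small membrane subunit, read 762.9, 753.8 and 755.5 in H2B K111A and 719, 672.9 and 709.9 in wild type (0.11, SE 0.036, adjusted p = 0.0774), also with no overlap. The subunits COX4, COX6, COX8, COX9 and COX12 overlapped between strains, with changes from -0.075 for COX4 to 0.060 for COX8.

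Several steps of the chain have alternative genes, of which 1 form prevails in well-aerated cells. COX5A and COX5B encode exchangeable forms of a complex IV subunit, the first made in air and the second when oxygen is low, and CYC1 and CYC7 encode the corresponding forms of cytochrome c. COX5B (YIL111W) read 78.8, 79.7 and 84 in H2B K111A and 77.6, 81.7 and 67.3 in wild type. COX5A (YNL052W) read 762.8, 706.5 and 676.1 in H2B K111A and 715.7, 812.7 and 752.6 in wild type. Both overlapped between strains, with adjusted p of 0.375 for COX5B and 0.339 for COX5A.

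CYC7 (YEL039C) read 92.3, 99.1 and 94.2 in H2B K111A and 84, 89.8 and 66.7 in wild type (0.19, SE 0.070, adjusted p = 0.107). CYC1 (YJR048W) read 900.3, 877.8 and 756.7 in H2B K111A and 872.9, 930 and 903.7 in wild type (-0.095, SE 0.061, adjusted p = 0.326). CYC7 did not overlap between strains and CYC1 did, with its lowest value on H2B K111A array 3.

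Within each array, the log2 value of CYC7 minus that of CYC1 was higher in H2B K111A, at -2.78 ± 0.13 against -3.06 ± 0.16 in wild type (SD, n = 3 each). This difference of 0.28 gave p = 0.1 in a two-sided exact permutation test, the lowest value possible with 3 arrays a strain, and 0.4 after adjustment over the 4 pairs compared. For COX5B minus COX5A the difference was 0.16 (exact permutation p = 0.2), for STF1 minus INH1 it was 0.071 (exact permutation p = 0.3), and for NDE2 minus NDE1 it was -0.0075 (exact permutation p = 1). With so few arrays no pair could pass, and the NDE2 difference depended on the pseudocount, at 0.27 with a pseudocount of 1. Different probe sets read their transcripts with different brightness, so the values say nothing about which form of a pair was more abundant.

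**Figure D3:**
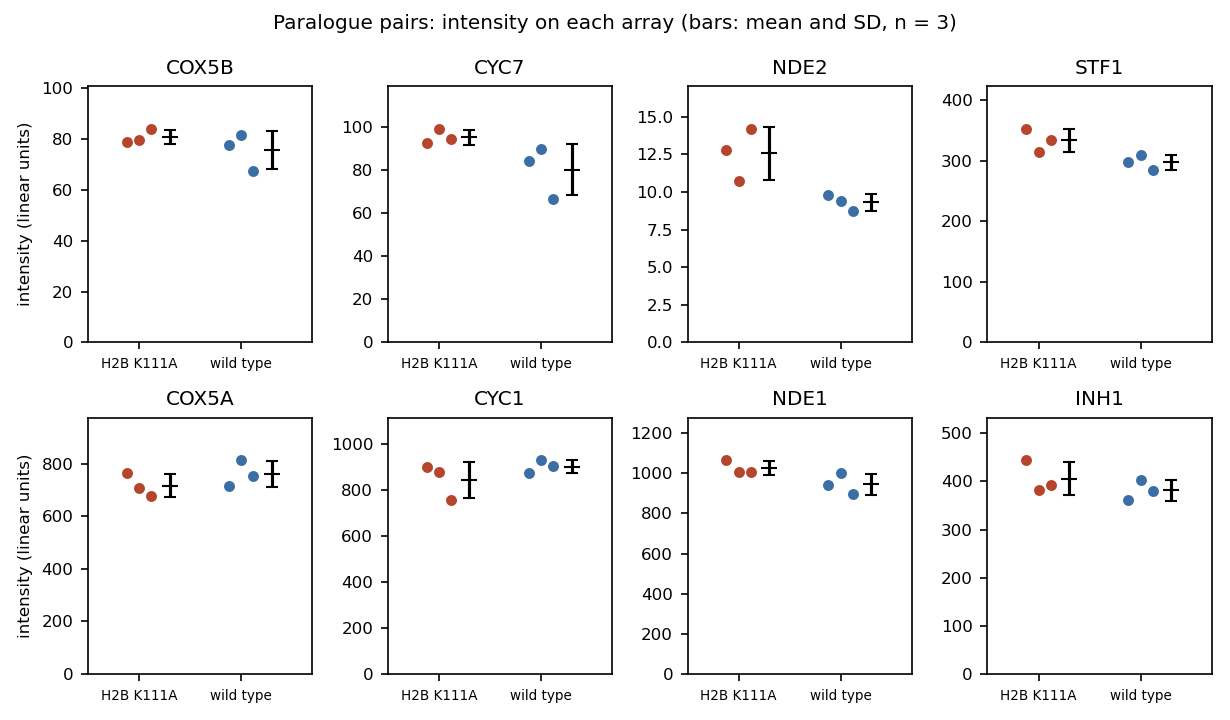
Linear intensity on each array (points) of 4 pairs of alternative genes, H2B K111A left and wild type right in each panel, with the mean and SD of 3 arrays (black). CYC7 lies at 92.3 to 99.1 in the mutant and 66.7 to 89.8 in wild type, while COX5A, CYC1, COX5B and INH1 overlap between the strains.

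Complex V consists of the catalytic F1 head in the matrix and the proton-conducting Fo part in the inner membrane, joined by stalks. None of the 5 genes of the head passed, and all of them overlapped between strains. Of all genes tested 14.5% passed. The mutant arrays lay all above wild type for 18.2% of genes and all below for 18.6%. With only 5 genes these counts do not set the head apart. ATP1 and ATP2, the alpha and beta subunits that make up the catalytic ring, marked the ends of the head's range of change. ATP1 read 1155, 1092 and 1046 in H2B K111A and 1047, 1082 and 1051 in wild type (0.048, SE 0.042, adjusted p = 0.473). ATP2 read 1080, 995 and 966 in H2B K111A and 1044, 1083 and 1038 in wild type (-0.057, SE 0.045, adjusted p = 0.423). ATP3, ATP15 and ATP16, of the central stalk, had changes between these. The 95% intervals of the 5 genes ran from -0.16 to 0.14 in all.

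In the peripheral stalk and Fo part, 2 of 9 genes rose, 22.2% against 6.92% of all genes tested. In the same part 1 fell, 11.1% against 7.62%. ATP17, the f subunit of Fo, rose 1.27-fold, the largest rise among the members past the test. ATP17 (YDR377W) read 654.4, 664.4 and 668.3 in H2B K111A and 552, 521 and 486 in wild type (0.33, SE 0.046, adjusted p = 0.00455). The gap between the strains was 102.4 units, and the call held without any 1 array (adjusted p = 0.00668 to 0.0246).

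TIM11, the e subunit, which takes part in joining ATP synthases into dimers, read 667.7, 652.2 and 685.2 in H2B K111A and 569.2, 612.8 and 600.1 in wild type (0.16, SE 0.039, adjusted p = 0.0287). ATP19 (YOL077W-A), the k subunit, also found with the dimer, read 453.5, 430.8 and 448 in H2B K111A and 474, 498.7 and 499.2 in wild type. ATP19 was 1.10-fold lower in the mutant (-0.13, SE 0.037, adjusted p = 0.0435), with no overlap. The ATP19 call was lost without any 1 of the 6 arrays (adjusted p = 0.05003 to 0.133). The TIM11 call was lost without H2B K111A array 1, 2 or 3 or wild-type array 1 (up to 0.106 without H2B K111A array 3).

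The other members of this part were ATP4, ATP5, ATP7, ATP14, ATP18 and ATP20, with changes from -0.0034 to 0.098. ATP4, the b subunit of the stalk, averaged 780 ± 5.53 in H2B K111A and 734 ± 6.95 in wild type (SD, n = 3 each, adjusted p = 0.103), and ATP18, a small Fo subunit, 622 ± 15.4 in H2B K111A and 579 ± 27.2 in wild type (adjusted p = 0.146). Neither overlapped between strains, with a gap of 34.5 units for ATP4 and 3.4 for ATP18.

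INH1 and STF1 encode inhibitors that block ATP hydrolysis by the complex. STF1 read 352.8, 314.9 and 334.3 in H2B K111A and 298.6, 308.9 and 284.2 in wild type (0.15, SE 0.047, adjusted p = 0.0618). INH1 read 443.9, 381.3 and 392.2 in H2B K111A and 360.6, 403.1 and 380.7 in wild type (0.081, SE 0.059, adjusted p = 0.382). STF1 was separate between the strains and INH1 was not.

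Seen by array, the medians of complex II and the NADH dehydrogenases did not overlap between the strains, and those of the other 7 groups did. The median deviation of complex II genes from their means over the 6 arrays was 0.13, 0.041 and 0.026 in H2B K111A and -0.071, -0.073 and -0.092 in wild type. For the F1 head it was 0.061, -0.013 and -0.047 in H2B K111A and -0.014, 0.016 and -0.0036 in wild type. H2B K111A array 1 had the highest median of the mutant arrays in 7 of the 9 groups, the exceptions being cytochrome c and the HAP genes. These medians describe the genes listed, and no test between complexes was made.

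**Figure D4:**
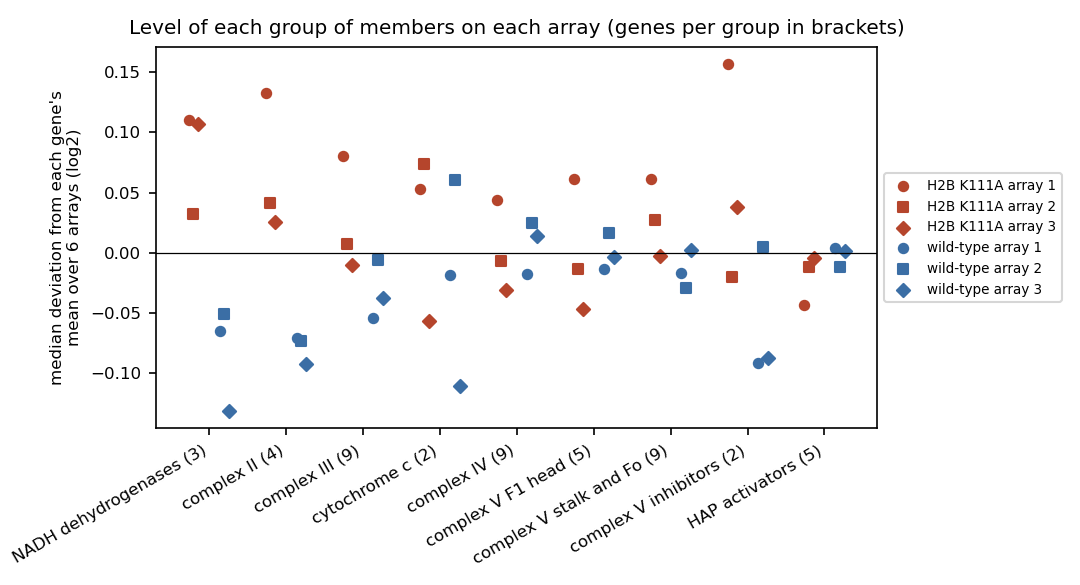
Median over the genes of each group of the deviation from the gene's own mean over 6 arrays (log2), by array, H2B K111A in red on the left and wild type in blue on the right. Complex II runs from 0.026 to 0.13 in the mutant and from -0.092 to -0.071 in wild type, while complex IV and the F1 head overlap.

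Mean intensities of the head subunits spanned 857 to 1098 in H2B K111A and 872 to 1060.0 in wild type. Those of complex III spanned 583 to 1046 in H2B K111A and 475 to 1002 in wild type, and those of complex II 374 to 504 in H2B K111A and 334 to 448 in wild type. Complex IV spanned 80.8 to 822 in H2B K111A and 75.5 to 797 in wild type. The lowest end of complex IV was COX5B in both strains. Since brightness per transcript differs between probe sets, these spans do not rank the complexes by mRNA abundance.

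Among the activators HAP4 rose and the genes of its DNA-binding partners did not pass. This made 1 of 5 HAP genes higher, 20.0% against 6.92% of all genes tested. HAP4 (YKL109W) read 248.1, 225.8 and 243.8 in H2B K111A and 201.1, 216.4 and 187.7 in wild type, 1.19-fold higher with no overlap (0.22, SE 0.052, adjusted p = 0.0290). Its call was lost without H2B K111A array 1 or 3 or wild-type array 1 or 3, with adjusted p of 0.09085, 0.103, 0.0695 and 0.06185 in that order, and its change stayed between 0.17 and 0.26.

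HAP2 read 104.6, 107.7 and 117 in H2B K111A and 114, 106.3 and 107.5 in wild type (adjusted p = 0.951). HAP3 read 58.7, 60.7 and 61.2 in H2B K111A and 61.7, 60.7 and 66 in wild type (adjusted p = 0.483). Both overlapped between strains. HAP5 read 41.9, 40.5 and 40.7 in H2B K111A and 46.9, 49.6 and 43.9 in wild type, below wild type on every array (-0.11, SE 0.037, adjusted p = 0.0822). HAP1, a separate activator that responds to heme, read 93.7, 99.7 and 93.7 in H2B K111A and 99.8, 102.3 and 108.4 in wild type (-0.085, SE 0.039, adjusted p = 0.168). HAP1 and HAP5 are the members besides ATP19 whose mutant arrays all lay below the wild-type arrays, and neither passed the test.

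Over the 4 lists of genes for assembly and expression of the complexes, 6 of 70 measured genes rose and 6 fell, 8.57% each, near the 6.92% and 7.62% of all genes tested. In the complex II list SDH6, an assembly factor that acts on the SDH2 protein, fell, and none of the other 6 genes passed. This made 14.3% of the list lower, against 7.62% of all genes tested. SDH6 averaged 98.3 ± 2.54 in H2B K111A and 127 ± 7.18 in wild type (SD, n = 3 each, adjusted p = 0.00541), 1.29-fold lower, and its call held without any 1 array. Of 13 genes for complex III assembly and cytochrome b expression, 2 rose, 15.4% against 6.92% of all genes tested. None fell, against 7.62% of all genes, and the list median was 0.095. CBS2, a translational activator of cytochrome b, rose 1.18-fold (adjusted p = 0.0401) and CBP4, an assembly factor, 1.16-fold (0.0295). The CBS2 call was lost without each array except wild-type array 1 and the CBP4 call without each except wild-type array 2 (up to 0.135 and 0.0973, both without H2B K111A array 3). With all arrays kept, the CBS2 call was also lost with a pseudocount of 1 (0.0722) and both calls with the replicate block (0.0829 for CBS2 and 0.0791 for CBP4).

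Of 35 measured genes for complex IV assembly and expression 4 rose and 2 fell, 17.1% against 14.5% of all genes tested, with a median of 0.020. COA2, an assembly factor, rose 1.48-fold, at 51.9, 49.2 and 57 in H2B K111A and 37, 35.4 and 34.4 in wild type (adjusted p = 0.00416). SCO2, related to the copper protein SCO1, rose 1.24-fold (adjusted p = 0.00884) and PET117 1.23-fold (0.0278). PET54, which activates translation of the mitochondrial COX3 mRNA, was 1.13-fold lower (0.0162). The other gene that rose was COX11 and the other that fell COA3, both named after their values were seen. COA2 and SCO2 held without any 1 array. The PET117 call was lost without H2B K111A array 1 or 3 or wild-type array 1 or 2 (up to 0.09285), and the PET54 call without H2B K111A array 2 or 3 (up to 0.06355). Both calls were lost with the replicate block (0.05535 each).

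For complex V, 3 of 15 genes of assembly and of expression of its mitochondrially encoded subunits fell, 20.0% against 7.62% of all genes. None rose, against 6.92% of all genes, and the median was 0.032. NCA3, linked in yeast to expression of mitochondrial ATP synthase subunits, averaged 64.5 ± 4.76 in H2B K111A and 109 ± 15.2 in wild type (SD, n = 3 each, adjusted p = 0.00430), and held without any 1 array. ATP11, a chaperone of the F1 head, was 1.16-fold lower (0.0398) and ATP23, a protease and assembly factor of Fo, 1.14-fold lower (0.0280). The ATP11 call was lost without each array except H2B K111A array 1 (up to 0.113) and the ATP23 call without each except wild-type array 3 (up to 0.09535). With all arrays kept, the ATP11 call was also lost with quantile normalization (0.0576), a pseudocount of 1 (0.0781) and the replicate block (0.0736), and the ATP23 call with the block (0.0659).

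Heme, the cofactor of cytochromes, is made by enzymes of which 2 of 8 fell, against 7.62% of all genes tested. None rose, against 6.92% of all genes, and the median was -0.039. HEM1, the first enzyme of the pathway, averaged 419 ± 14.5 in H2B K111A and 476 ± 25.8 in wild type (adjusted p = 0.0396). HEM15, ferrochelatase, which inserts the iron, averaged 291 ± 3.17 in H2B K111A and 324 ± 3.20 in wild type (SD, n = 3 each, adjusted p = 0.0252). The HEM1 call was lost without each array except wild-type array 1 (up to 0.130) and the HEM15 call without each except wild-type array 3 (up to 0.08895). With all arrays kept, the HEM1 call was also lost with quantile normalization (0.0548), a pseudocount of 1 (0.0768) and the replicate block (0.0870), and the HEM15 call with the block (0.0791).

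Of the 7 carriers of ADP, ATP and phosphate and porins, 1 rose, the phosphate carrier PIC2, 1.39-fold (adjusted p = 0.00416), in each fit without 1 array too. This made 14.3% of that list higher, against 6.92% of all genes tested. Of 4 other enzymes that exchange electrons with the chain, 1 rose, against 6.92% of all genes tested, and 1 fell, against 7.62%. GUT2, the mitochondrial glycerol-3-phosphate dehydrogenase, rose 1.19-fold (adjusted p = 0.0482), and DLD1, a D-lactate dehydrogenase, was 1.10-fold lower (0.0335). The DLD1 call was lost without any 1 array (0.0513 to 0.117), and the GUT2 call without each array except H2B K111A array 2 (up to 0.135). With all arrays kept, the GUT2 call was also lost with quantile normalization (0.0598), a pseudocount of 1 (0.0807) or 64 (0.0564), the replicate block (0.0855) and array weights (0.0686), and the DLD1 call with a pseudocount of 1 (0.06255) and the block (0.0967).

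**Figure D5:**
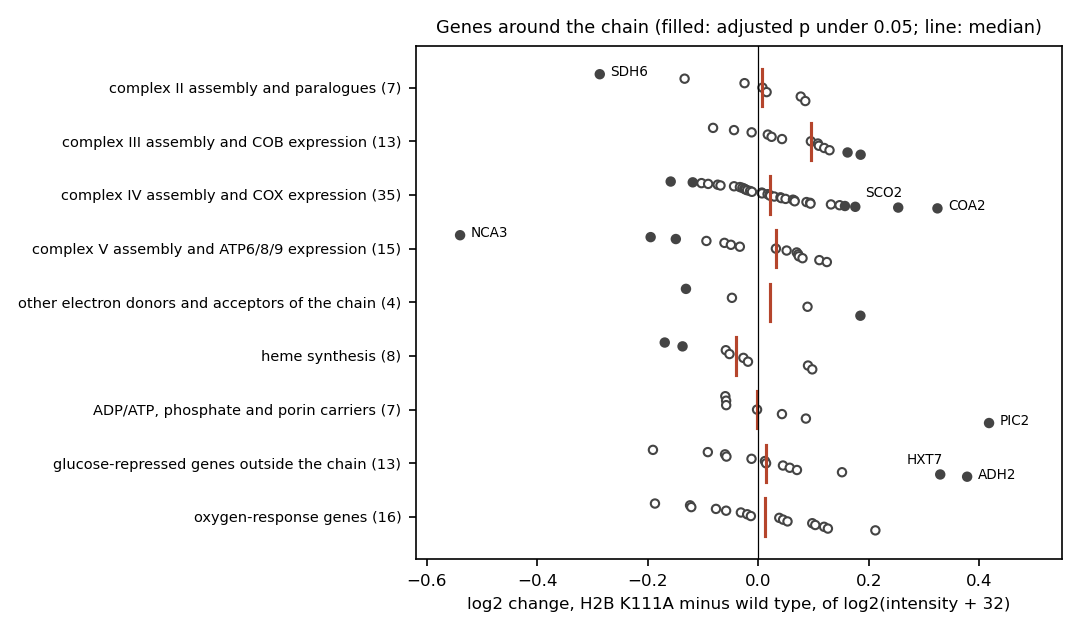
Log2 change, H2B K111A minus wild type, of log2(intensity + 32) for genes of 9 lists around the chain (points; filled where the test was passed), with each list's median (red line). NCA3 and SDH6 lie farthest left and PIC2, ADH2, HXT7 and COA2 farthest right, while every list median lies between -0.039 and 0.095.

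Genes repressed by glucose outside the chain were measured as a sign of the cultures' growth state. Of 13 measured, 2 rose, 15.4% against 6.92% of all genes tested. None fell, against 7.62% of all genes, and the median change was 0.014. ADH2, the alcohol dehydrogenase that consumes ethanol, read 325.1, 330.4 and 283.5 in H2B K111A and 240.3, 225.3 and 233.4 in wild type (adjusted p = 0.00560). HXT7, a high-affinity hexose transporter whose probe set may by its name also read a related gene, gave 477.8, 441 and 433.9 in H2B K111A and 359.2, 355.1 and 341.9 in wild type (adjusted p = 0.00421). The summed intensity of the 13 genes was 1187 to 1267 in H2B K111A and 1044 to 1073 in wild type. Without ADH2 and HXT7, left out after their values were seen, the other 11 genes summed to 463.9, 415.8 and 484.4 in H2B K111A and 473.3, 483.9 and 468.7 in wild type. These sums overlapped between strains, and the higher sum of the 13 lay in ADH2 and HXT7. Leaving out the only 2 genes that passed makes such an overlap likely in advance, so it decides nothing about the other 11. ACS1, an acetyl-CoA synthetase also named after its values were seen, read 75, 61.3 and 81 in H2B K111A and 84.2, 92.2 and 84.2 in wild type, lower on every H2B K111A array, and did not pass (adjusted p = 0.0873). FBP1 and MLS1, also of this list and picked after their values were seen, were dim in both strains. FBP1 read 7.0 to 9.3 in H2B K111A and 6.1 to 8.2 in wild type. MLS1 read 15.1 to 23.5 in H2B K111A and 13.4 to 15.9 in wild type. Brightness differs between probe sets, so these values do not show how far the genes were repressed. No gene of the list was at 0. Whether growth state had a part in the rises of HAP4 and of subunits was not tested.

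The list for the response to oxygen held 14 genes repressed by oxygen and 2 genes of their repressors, ROX1 and MOT3. Of these 16, none passed limma's test in either direction, against 14.5% of all genes tested. The median change was 0.012, and the summed intensity was 2839 to 2963 in H2B K111A and 2835 to 2910 in wild type. Over the 14 repressed genes alone, a division made after the data were seen, the median change was 0.042 and the summed intensity 2575 to 2667 in H2B K111A and 2500 to 2600 in wild type. Much of these sums came from 2 bright genes, OLE1 and NCP1, named after their values were seen. OLE1 averaged 929 in H2B K111A and 943 in wild type, and NCP1 675 and 653. The sums therefore say little about the dim genes of the list. Without adjustment, 5 of the 16 genes had p under 0.05, against 31.7% of all genes. They were HMG2, FET4, TIR2 and TIR4 of the repressed genes and the repressor gene MOT3, named after their values were seen. DAN1 was at background in both strains, and ANB1 read 54.4, 57.8 and 62.4 in H2B K111A and 56, 53 and 47 in wild type.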

How the data were processed

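RNA of 3 H2B K111A and 3 wild-type samples was measured on single-channel arrays with biotin-labelled cRNA, made from about 20 µg of total RNA per the labels' protocols. The deposited table holds linear intensity values of 10928 probe sets, which the authors had already brought to a common scale. The mean after trimming 2% at each end was 125.0 or 125.1 on every array. The software is not given in the sources used here, nor is the method.

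The array annotation gave 1 gene symbol for 7244 probe sets, several for 1 and none for 3683. Through the gene identifier 5498 matched a gene of the RefSeq R64 table and 1746 belonged to another organism. The brightest probe set by mean over 6 arrays was kept for the 47 genes with several, which left 5449 genes. Array medians of log2(intensity + 32) lay between 7.563 and 7.591, and no further normalization was applied.

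Strains were compared in limma (version 3.58.1, R 4.3.3) by lmFit followed by eBayes, as a two-sided test with 8.91 degrees of freedom and Benjamini-Hochberg adjustment over all genes. The number of arrays limits the precision. Paralogue pairs were compared with exact permutation tests. The procedure was tested on simulated data. The members and lists were chosen with earlier results of these data known. Values are printed for members past the threshold, paralogue pairs, HAP genes, the highest and lowest change of each group, the 3 members closest to the threshold and up to 4 passing genes of each other list. A few more members and list genes were added after their values were seen. These are RIP1, QCR2, ATP4 and ATP18, and of other lists ACS1, FBP1, MLS1, DAN1, ANB1, OLE1 and NCP1. COX11, COA3, HMG2, FET4, TIR2, TIR4 and MOT3 were also named after their values were seen. Alternatives covered scaling, pseudocount, dim genes, the replicate block, the variance prior, array weights, probe sets, the threshold and each array left out. COX26, HXT6 and the mitochondrially encoded genes were not analysed here.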

Additional observations from a re-analysis of the deposited data

How the results depend on the processing

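The count of 792 genes past the test was 489 (232 higher, 257 lower) with a pseudocount of 1, 346 with the replicate block and 159 at an adjusted p under 0.01. Leaving out 1 array gave 213 to 559 genes, 213 without H2B K111A array 3, 303 without array 1, 455 without array 2 and 477 without wild-type array 1. The count of 9 members was 4 with a pseudocount of 1, 4 with the replicate block, 3 at an adjusted p under 0.01 and 3 to 6 without 1 array. CYT1, ATP17 and NDI1 passed in each of these fits. The ATP19 call was also lost with quantile normalization (adjusted p = 0.0569). The members' median log2 change was 0.046 to 0.052 under the alternatives that kept all arrays, and 0.018 to 0.064 without 1 array, the lowest without H2B K111A array 1. The NDE2 minus NDE1 difference reversed, to 0.0044 with quantile normalization and 0.27 with a pseudocount of 1, and ran from -0.047 to 0.019 without 1 array. The difference for the other 3 pairs stayed positive. HAP2, near 0, turned to -0.0014 with quantile normalization and -0.0029 with array weights, and ran from -0.032 to 0.031 without 1 array, and QCR10 from -0.034 to 0.049. Same-numbered samples of the strains did not deviate together (correlations of -0.234, -0.058 and -0.169 over genes), so the numbers were not taken as pairs, and the calls of SDH1, SDH2, ATP19, TIM11 and HAP4 were lost with the replicate block, which also uses up degrees of freedom. The dim members were NDE2, which averaged 12.6 in H2B K111A and 9.30 in wild type, and HAP5, at 41.0 and 46.8. The other 46 averaged 50 or more over the 6 arrays. The median change of the HAP genes, -0.040, was -0.059 with a pseudocount of 1 and -0.018 over those averaging 50 or more.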
